A study of Mus musculus with 29 samples.

Results

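Retroviral expression of Neurog2 together with Hmgb2 was compared with control virus in astrocytes of the EGF + bFGF culture, in 3 libraries of Neurog2 + Hmgb2 cells and 5 libraries of control cells. These 8 libraries were chosen by the names of their columns from the 29 libraries of the series, and the comparison covered the 15719 of 25239 genes whose mean regularized log (rlog) value over all libraries was at least 1. The genes just inside that limit were C130074G19Rik with a mean of 1.00009 and Sox18 with 1.00089, and those just outside were Cntnap3 with 0.99952 and Glt1d1 with 0.99862. An rlog value is a log2 scale value of normalised read counts, in which the differences of genes with few reads are shrunken, so a difference of 1 stands for a 2-fold change and is a cautious estimate for a weakly expressed gene.

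All cells were wild-type C57BL/6J astrocytes from the cerebral cortex of mice 5 to 6 days old in the growth protocol and 6 to 8 days old in the design text. The labels name grey matter as the tissue and the methods white matter. Cells grew for 10 days in serum-containing medium with EGF (10 ng/ml) and bFGF (10 ng/ml). They were then transduced with Moloney-type retroviruses, which enter the genome of dividing cells only, and were sorted by fluorophore 48 h later. The Neurog2 + Hmgb2 group received Neurog2 with a red reporter and Hmgb2 with a green reporter, and the control group received a green reporter alone, all under the CAG promoter. Whether only cells with both fluorophores were collected is not given in the sources used here. Further groups used for reference were 3 libraries of Neurog2 cells and 4 of Hmgb2 cells in EGF + bFGF, and 3 libraries of Neurog2 + Hmgb2 cells with 3 of control cells in bFGF alone. Nothing states that the replicates came from separate cultures, so p-values measure the spread between these samples, which may be technical.

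Neurog2 is a proneural basic helix-loop-helix (bHLH) transcription factor that binds E-box motifs, instructs progenitors of the dorsal telencephalon to become glutamatergic neurons, and can drive cultured astrocytes to a neuronal fate. In the embryo it acts through a cascade of further bHLH factors, and it raises Delta ligands, which signal to Notch on neighbouring cells and hold those in the progenitor state. Hmgb2 is a non-histone chromatin protein of the high mobility group that bends DNA and is abundant in dividing cells.

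Transcripts of both virus-borne genes were higher in the cells labelled with them than in control cells. Neurog2 stood at 14.29, 13.93 and 13.21 rlog in the Neurog2 + Hmgb2 libraries, against 7.74, 8.15, 8.18, 7.85 and 8.01 rlog in the control libraries, a mean of 13.81 ± 0.55 rlog (SD, n = 3) against 7.99 ± 0.19 rlog (SD, n = 5). The difference was 5.82 ± 0.38 on the log2 scale (adjusted p = 1.07e-09, limma). Hmgb2 stood at 12.37, 11.71 and 13.32 rlog with both viruses, against 10.10, 10.30, 10.19, 9.57 and 10.25 rlog with control virus, a difference of 2.38 ± 0.26 (adjusted p = 8.15e-06, limma). The reads do not separate the viral from the endogenous transcript. In the 4 libraries labelled Hmgb2 alone, Neurog2 stood at 9.89 to 11.47 rlog, above all 5 control libraries, a point that touches each comparison in which those libraries enter.

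In all, 153 genes (0.973% of those tested) were counted as higher and 31 genes (0.197%) as lower in Neurog2 + Hmgb2 cells than in control cells, by more than 2-fold and with a limma adjusted p below 0.05. With no fold limit, 230 genes (1.46%) were higher and 82 (0.522%) lower, and the shares of 1.46% and 0.522% are the background for the gene groups below. Those groups were listed with the study and earlier results of these data in view. A share above the background may thus follow in part from that choice and is no separate evidence. The rises were the larger changes: 55 genes rose more than 4-fold and 15 more than 8-fold, whereas 3 genes fell more than 4-fold. Risen genes came mostly from low control levels, since 88 of the 153 (57.5%) had a control mean under 5 rlog, against 24.8% of all tested genes, and 1 of the 31 fallen genes (3.23%) did. The libraries of both groups did not overlap for 147 of the 153 and 28 of the 31 genes, against 4.46% of all tested genes without overlap in the upward and 3.12% in the downward direction. The 153 and 31 genes were selected on these same libraries, so their lack of overlap follows largely from the selection and is no separate evidence.

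The counts depended on single libraries. Leaving out each of the 8 libraries in turn gave 65 to 225 higher and 4 to 63 lower genes. The 65 and the 4 came without Neurog2 + Hmgb2 replicate 3, the 225 without Neurog2 + Hmgb2 replicate 2 and the 63 without Neurog2 + Hmgb2 replicate 1. Leaving out control replicate 1, 3, 4 or 5 gave 109, 120, 114 and 116 higher and 17, 19, 17 and 16 lower genes. Leaving out control replicate 2 gave 163 and 52. An adjusted p under 0.05 held in all 8 of these fits for 61 of the 153 higher genes and for 4 of the 31 lower genes. Without Neurog2 + Hmgb2 replicate 3, proneural factors kept 4 called members against 5 and Notch ligands and modulators 3 against 4, whereas factors of neuronal differentiation had 2 against 8, RNA-binding and splicing factors 2 against 7, transmitter release genes 4 against 6, transmitter receptors 2 against 7, neuronal cytoskeleton 1 against 5, axonal and synaptic adhesion molecules 1 against 10, axon guidance genes 1 against 6, and ion channels 0 against 4. Among the lists with falls, YAP and TAZ targets had 1 against 4 and stress fibre genes 0 against 3. Without control replicate 1, corepressors and zinc finger factors had 4 higher members against 6, and BAF subunits 0 against 2. Without control replicate 3, migration and reelin pathway genes had 1 against 4. Members of these lists also lost the call without Neurog2 + Hmgb2 replicate 3. In that fit the limma adjusted p was 0.331 for Insm1, 0.406 for Myt1, 0.428 for Actl6b and 0.105 for Bcl7a. For the migration genes Igfbpl1, Rnd2 and Cxcr4 it was 0.331, 0.406 and 0.265.

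Libraries also stood apart within the groups. The first axis of the deviations from the group means held 67.9% of their variance over the 8 libraries and set Neurog2 + Hmgb2 replicate 2 with control replicates 2 and 3 apart from the other 5 libraries. Gfap, the intermediate filament of astrocytes, stood at 15.73, 13.20 and 14.94 rlog in Neurog2 + Hmgb2 cells and at 15.72, 13.70, 13.72, 15.30 and 15.45 rlog in control cells. Its lowest values were those of the same 3 libraries. Without those 3 libraries 156 genes were counted as higher and 17 as lower, of which 119 and 10 were among the 153 and the 31.

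Among the factors that act with or after Neurog2, 4 bHLH genes stood out by the firmness of their rise. Of 11 tested proneural bHLH factors, 5 rose and none fell, and their median difference was 0.85, against 0.01 over all tested genes. Neurod1, a bHLH factor of neuronal differentiation, stood at 6.31, 5.60 and 7.74 rlog in Neurog2 + Hmgb2 cells, against 2.73, 3.28, 3.50, 3.14 and 3.10 rlog in control cells, a rise of 3.40 ± 0.42 (adjusted p = 5.53e-05). Neurod2, a factor of cortical projection neurons, stood at 4.76, 3.92 and 5.19 rlog with both viruses, against 2.11, 2.35, 2.46, 2.35 and 2.19 rlog in control cells, a rise of 2.33 ± 0.30 (adjusted p = 6.38e-05). In both genes the third Neurog2 + Hmgb2 library was the highest and the second the lowest, and all 3 lay above every control library. Nhlh1, a bHLH gene of newly born neurons, rose by 2.71 ± 0.46, to 4.66, 4.79 and 6.68 rlog in Neurog2 + Hmgb2 cells, against 2.45 to 2.90 rlog in control cells. Hes6, which counteracts Hes1 in neurogenesis, rose by 2.02 ± 0.23, to 11.47, 10.40 and 11.20 rlog, against 8.77 to 9.29 rlog in control cells. These 4 genes passed in each of the 8 fits with a library left out. Neurod6, a later cortical factor, rose by 0.85 ± 0.17 but was called only while Neurog2 + Hmgb2 replicate 3 was in the fit (adjusted p = 0.149 without it). Neurod4, which was not called, had a difference of 1.66 ± 0.64, with 2.89, 2.74 and 5.27 rlog in Neurog2 + Hmgb2 cells and 1.72 to 2.13 rlog in control cells.

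Corepressors and zinc finger factors of neurogenesis rose in 6 of 17 tested members, with a median difference of 1.05. Cbfa2t3, a corepressor of the ETO family, had the smallest adjusted p after Neurog2 itself (8.26e-09). It stood at 7.02, 7.41 and 7.27 rlog in Neurog2 + Hmgb2 cells, against 3.25, 3.81, 3.88, 3.69 and 3.41 rlog in control cells, a rise of 3.63 ± 0.27. The 3 libraries lay close together, and the second, the lowest in Neurod1 and Neurod2, was the highest here. Rcor2, a partner of the REST and LSD1 complex, stood at 8.70, 8.00 and 9.64 rlog with both viruses, against 5.60, 6.40, 6.03, 6.54 and 5.86 rlog in control cells, a rise of 2.69 ± 0.39. St18 and Prdm8, a zinc finger factor of the Myt1 family and a repressor of the Prdm family, rose by 1.76 ± 0.30 and 1.48 ± 0.26, and both kept the call in all 8 fits. Insm1 and Myt1, zinc finger repressors of progenitor and Notch target genes, rose by 2.73 ± 0.67 and 2.19 ± 0.56. Each passed in only 3 of the 8 fits, and they had adjusted p = 0.331 and 0.406 without Neurog2 + Hmgb2 replicate 3. For Insm1 the groups overlapped, with 8.13, 5.61 and 8.80 rlog in Neurog2 + Hmgb2 cells and 4.42, 4.77, 4.41, 4.35 and 5.98 rlog in control cells.

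E-boxes have the letters CANNTG, and the form CAGATG is the one most often bound by Neurog2 and Neurod factors. On the other strand it reads CATCTG, so both strands were searched. Promoter windows of 250 bases before the gene start, taken from RefSeq on GRCm38.p6, matched 51 of the 61 higher genes that passed in all 8 fits. CAGATG or CATCTG was present in 9 of the 51 (17.6%), against 10.3% of the 12323 matched promoters of tested genes and 14.5% of all 27025 promoters. CAGCTG, which cannot overlap with either form, was present in 9 of the 51 (17.6%), against 1476 of the 12323 tested genes and 12.8% of all promoters. Any CANNTG, which includes the other motifs, was present in 34 of the 51 (66.7%), against 57.6% of tested genes and 66.0% of all promoters. CAGATG or CATCTG was present in 22 of the 113 matched genes counted as higher (19.5%) and in 1 of the 21 counted as lower (4.76%). A match is a description of letters and not a bound site. The promoters of 4 named genes with CAGATG or CATCTG are shown, 5′ to 3′ on the strand of the gene, in lower case with the motif in capitals. They lie at chr8:122699110-122699359 (minus strand, Cbfa2t3), chr7:29289070-29289319 (plus strand, Ppp1r14a), chr11:98329646-98329895 (minus strand, Neurod2) and chr1:172057597-172057846 (minus strand, Nhlh1).
Cbfa2t3: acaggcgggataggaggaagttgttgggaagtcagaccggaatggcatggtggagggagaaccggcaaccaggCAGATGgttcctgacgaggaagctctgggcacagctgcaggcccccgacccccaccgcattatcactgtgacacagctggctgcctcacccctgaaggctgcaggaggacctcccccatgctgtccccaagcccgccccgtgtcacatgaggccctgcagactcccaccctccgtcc
Ppp1r14a: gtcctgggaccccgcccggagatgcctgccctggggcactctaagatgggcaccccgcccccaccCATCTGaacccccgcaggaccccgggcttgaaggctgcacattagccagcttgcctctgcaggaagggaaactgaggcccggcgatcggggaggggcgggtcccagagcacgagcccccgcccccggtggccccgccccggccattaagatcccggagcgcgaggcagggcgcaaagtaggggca
Neurod2: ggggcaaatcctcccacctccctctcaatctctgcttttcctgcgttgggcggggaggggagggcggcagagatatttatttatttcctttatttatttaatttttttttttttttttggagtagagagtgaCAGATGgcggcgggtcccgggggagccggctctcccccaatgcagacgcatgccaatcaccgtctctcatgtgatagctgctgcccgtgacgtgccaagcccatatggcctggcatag
Nhlh1: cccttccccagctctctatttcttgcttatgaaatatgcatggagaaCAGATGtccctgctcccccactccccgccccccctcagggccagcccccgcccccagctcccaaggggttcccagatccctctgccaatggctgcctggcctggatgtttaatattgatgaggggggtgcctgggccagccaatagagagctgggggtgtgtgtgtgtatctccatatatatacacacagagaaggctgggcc
The motif, present once in each, began 177 bases before it in Cbfa2t3, 185 bases in Ppp1r14a, 118 bases in Neurod2 and 203 bases in Nhlh1. Ppp1r14a, an inhibitor of myosin phosphatase, stood at 6.53, 7.49 and 7.50 rlog in Neurog2 + Hmgb2 cells, against 3.71, 3.70, 4.17, 3.58 and 3.38 rlog in control cells, a rise of 3.47 ± 0.32 (adjusted p = 4.8e-07).

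**Figure D1:**
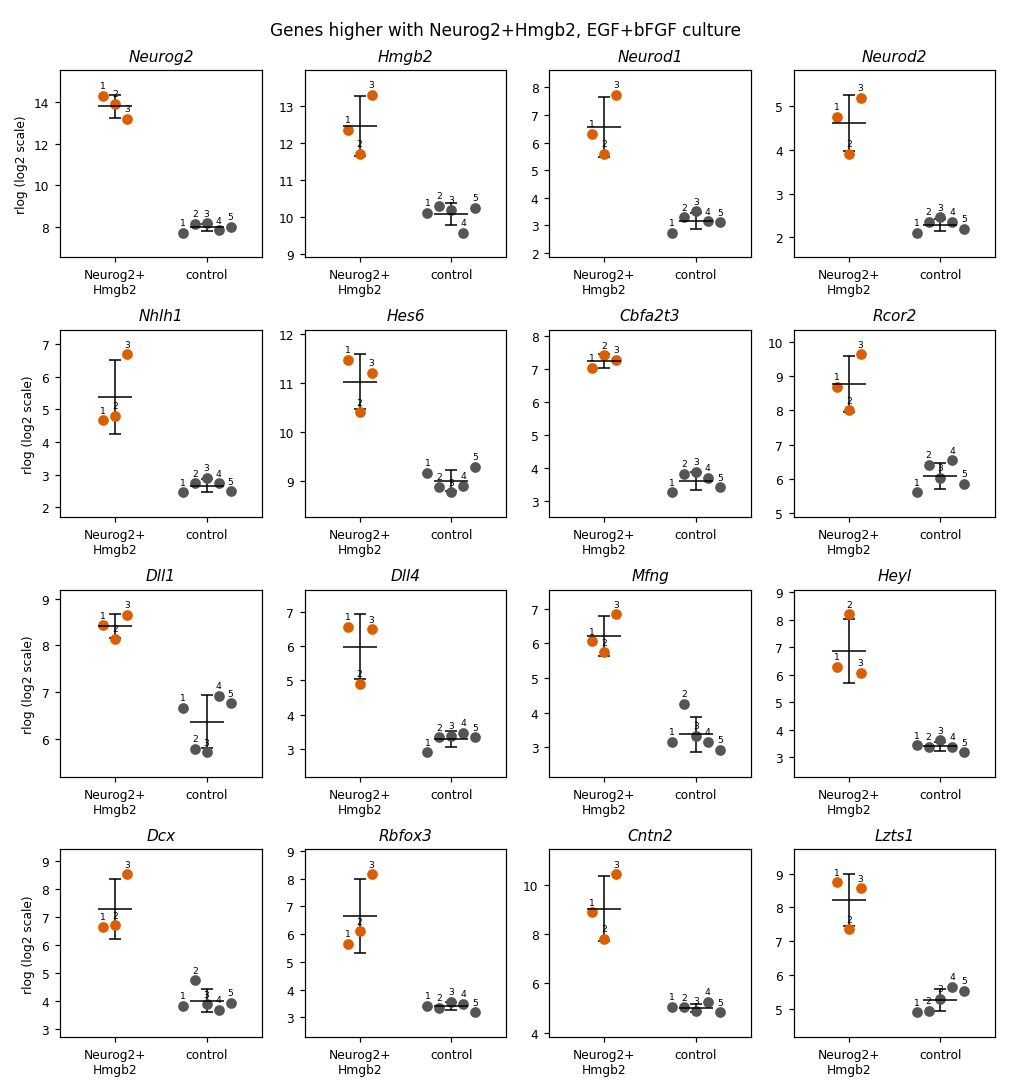
Rlog values (log2 scale) of Neurog2, Hmgb2 and further higher genes in each of the 3 Neurog2 + Hmgb2 libraries (orange) and the 5 control libraries (grey) of the EGF + bFGF culture, numbered by replicate (horizontal bars are means, error bars SD). No Neurog2 + Hmgb2 library overlaps with a control library in any of these genes, and replicate 3 is the highest of its group in Hmgb2, Neurod1, Neurod2, Nhlh1, Rcor2, Dll1, Mfng, Dcx, Rbfox3 and Cntn2.

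Ligands and modulators of Notch rose in 4 of 17 tested members, with a median of 0.27. The Delta-type ligands Dll1, Dll3 and Dll4 all rose. Dll1 stood at 8.43, 8.14 and 8.65 rlog in Neurog2 + Hmgb2 cells, against 6.66, 5.79, 5.71, 6.92 and 6.76 rlog in control cells, a rise of 2.04 ± 0.34. Dll4 stood at 6.56, 4.90 and 6.49 rlog with both viruses, against 2.91, 3.35, 3.39, 3.48 and 3.35 rlog in control cells, a rise of 2.69 ± 0.36, and Dll3, which inhibits Notch within the cell, rose by 3.01 ± 0.54 (adjusted p = 0.00237, but 0.0625 without Neurog2 + Hmgb2 replicate 3). Mfng, a glycosyltransferase that modifies Notch, rose by 2.85 ± 0.39, to 6.06, 5.74 and 6.84 rlog, against 2.92 to 4.25 rlog in control cells.

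Of 14 tested Notch receptors and targets, 1 rose and none fell, with a median of -0.08. That member was Heyl, a Hairy/Enhancer-of-split-related target, at 6.29, 8.19 and 6.07 rlog in Neurog2 + Hmgb2 cells, against 3.44, 3.38, 3.61, 3.39 and 3.18 rlog in control cells, a rise of 3.45 ± 0.62 (adjusted p = 0.00235). Here Neurog2 + Hmgb2 replicate 2 was the highest library of its group. The receptor Notch1 had a difference of -0.23 ± 0.33, and the effectors Hes1, Hes5 and Hey1 had -0.38 ± 0.44, 0.89 ± 0.85 and -0.64 ± 0.40, none of them called.

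Factors of neuronal differentiation rose in 8 of 22 tested members, with a median of 0.88. Sox11, a Sox factor of immature neurons, stood at 9.81, 9.67 and 10.80 rlog in Neurog2 + Hmgb2 cells, against 8.30, 8.81, 8.50, 8.64 and 8.55 rlog in control cells, a rise of 1.53 ± 0.27 (adjusted p = 0.00206, and 0.0561 without Neurog2 + Hmgb2 replicate 3). Mycl, a Myc family member, rose by 1.39 ± 0.21 and Ebf3, a factor of the Olf/EBF family, by 1.26 ± 0.19, both in all 8 fits. Prox1, a homeobox factor of dentate granule neurons and other newborn neurons, stood at 8.15, 7.23 and 8.80 rlog with both viruses, against 6.38, 6.26, 6.00, 6.67 and 6.77 rlog in control cells. Its rise of 1.64 ± 0.41 had an adjusted p of 0.0362, but it passed in only 1 of the 8 fits with a library left out. The adjusted p was largest without Neurog2 + Hmgb2 replicate 3 (0.354). Ebf2, Onecut2, Pknox2 and Pou4f1 rose by 0.72 to 1.70, and each of these calls was lost in at least 1 of the 8 fits. Among POU factors, Pou3f2 had a difference of 0.97 ± 0.37 (adjusted p = 0.212) and Pou2f2 one of 0.48 ± 0.40 (0.661). Pax6, a progenitor factor, had -0.49 ± 0.51 (0.75).

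Genes of the neuronal cytoskeleton rose in 5 of 31 tested members, with a median of 0.45. Dcx, the microtubule-associated doublecortin of migrating young neurons, stood at 6.64, 6.70 and 8.52 rlog in Neurog2 + Hmgb2 cells, against 3.84, 4.74, 3.89, 3.69 and 3.95 rlog in control cells, a rise of 3.27 ± 0.56 (adjusted p = 0.00171). Tubb3, the neuronal beta-tubulin, stood at 11.02, 10.54 and 11.19 rlog with both viruses, against 9.45, 9.39, 9.27, 9.31 and 9.51 rlog in control cells, a rise of 1.53 ± 0.32 (adjusted p = 0.00855). The groups overlapped in neither gene, though Tubb3 was already abundant in control cells. Without Neurog2 + Hmgb2 replicate 3 the adjusted p was 0.0414 for Dcx and 0.102 for Tubb3. The neurofilament gene Ina and the semaphorin mediator Crmp1 rose by 1.71 ± 0.42 and 1.64 ± 0.35 and were, like Tubb3, not called without that library. Ina passed in only 3 of the 8 fits, and Crmp1 in 7. Map2, a dendritic microtubule protein, and Stmn2, a regulator of growth cone microtubules, were not called, with differences of 0.45 ± 0.52 and -0.35 ± 0.38. Stmn2 stood at 8.09, 8.06 and 8.31 rlog in Neurog2 + Hmgb2 cells and at 7.88, 8.10, 8.91, 8.73 and 8.88 rlog in control cells.

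Neuronal RNA-binding and splicing factors rose in 7 of 20 tested members, with a median of 1.04. Rbfox3, the NeuN antigen and a splicing factor of neurons, stood at 5.66, 6.10 and 8.16 rlog in Neurog2 + Hmgb2 cells, against 3.42, 3.35, 3.56, 3.50 and 3.19 rlog in control cells, a rise of 3.24 ± 0.48 (adjusted p = 0.000377). Elavl2, a neuronal Hu protein, rose by 2.73 ± 0.44, to 8.14, 7.12 and 8.68 rlog, against 5.13 to 5.44 rlog in control cells. Both passed in all 8 fits. Elavl4, Srrm3, Srrm4, Khdrbs2 and Mex3b rose by 1.16 to 2.19 and lost the call without Neurog2 + Hmgb2 replicate 3, among them Srrm4, the activator of neuronal microexons (1.70 ± 0.32, adjusted p = 0.00381). Srrm4 and Mex3b each passed in 7 of the 8 fits, and Elavl4, Srrm3 and Khdrbs2 each in only 3. Elavl3, a further marker of newborn neurons, had a difference of 1.12 ± 0.40 and was not called (adjusted p = 0.182). In a sorted population, a larger share of cells with a transcript and more transcript per cell cannot be told apart.

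Axonal and synaptic adhesion molecules rose in 10 of 49 tested members (median 0.25) and axon guidance genes in 6 of 63 (median 0.14). Neurog2 + Hmgb2 replicate 2 had list means of 5.98 and 6.93 rlog. These lay within the control ranges, 5.83 to 6.31 and 6.85 to 7.20 rlog, whereas replicates 1 and 3 lay above them. Cntn2, the axonal adhesion molecule TAG-1, had the largest rise after Neurog2 itself and Gal. It stood at 8.88, 7.80 and 10.43 rlog in Neurog2 + Hmgb2 cells, against 5.05, 5.03, 4.88, 5.24 and 4.83 rlog in control cells, a rise of 4.03 ± 0.59 (adjusted p = 0.000298). Slit1, a repellent ligand of Robo receptors, rose by 2.85 ± 0.48, to 8.75, 6.65 and 9.15 rlog, against 5.15 to 5.59 rlog in control cells. These were the members of the 2 lists that passed in all 8 fits. Dscaml1, a homophilic adhesion molecule, stood at 7.56, 6.37 and 8.79 rlog with both viruses, against 5.01, 5.32, 4.63, 4.72 and 5.20 rlog in control cells. Its rise of 2.60 ± 0.52 had an adjusted p of 0.00644, and of 0.134 without Neurog2 + Hmgb2 replicate 3. The same held for Dcc, the netrin receptor (2.21 ± 0.44, adjusted p = 0.00636 and 0.129), and for Igsf21, a synaptic adhesion molecule (2.86 ± 0.57, 0.00622 and 0.116).

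Migration and reelin pathway genes rose in 4 of 23 tested members (median 0.24). Lzts1, which in the developing cortex controls the delamination of newborn neurons, stood at 8.75, 7.35 and 8.57 rlog in Neurog2 + Hmgb2 cells, against 4.90, 4.94, 5.29, 5.65 and 5.53 rlog in control cells, a rise of 2.96 ± 0.29 (adjusted p = 1.39e-06). Rnd2, a small GTPase gene that Neurog2 controls in migrating cortical neurons, rose by 1.76 ± 0.44 (adjusted p = 0.0356, and 0.406 without Neurog2 + Hmgb2 replicate 3). Igfbpl1 and the chemokine receptor gene Cxcr4 rose by 2.21 ± 0.55 and 1.03 ± 0.26, and like Rnd2 they passed in no more than 3 of the 8 fits. Lrp8, a reelin receptor, stood at 10.68, 9.39 and 10.80 rlog with both viruses, against 8.95, 9.00, 9.00, 9.15 and 9.10 rlog in control cells. Its groups did not overlap, but its difference of 1.25 ± 0.36 missed the threshold (adjusted p = 0.0719), as did that of the adaptor gene Shf (adjusted p = 0.0653), with 7.54, 7.00 and 7.93 rlog in Neurog2 + Hmgb2 cells and 5.24 to 6.80 rlog in control cells.

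Genes of transmitter release rose in 6 of 35 tested members (median 0.60). The complexin Cplx2, the active zone scaffold Bsn and the vesicle protein Sv2b rose by 1.74 ± 0.24, 1.52 ± 0.22 and 2.38 ± 0.38. Sv2b stood at 5.49, 4.95 and 6.51 rlog in Neurog2 + Hmgb2 cells, against 3.13, 3.51, 3.46, 3.13 and 3.10 rlog in control cells. Those 3 genes passed in all 8 fits, whereas Cplx1 and Doc2b did not.

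Transmitter receptor genes rose in 7 of 41 members (median 0.13) and ion channel genes in 4 of 44 (median 0.20). Replicate 2 of the Neurog2 + Hmgb2 group had a receptor mean of 4.27 rlog, within the control range of 4.26 to 4.67 rlog. Its channel mean of 4.60 rlog lay below the control range of 4.65 to 5.00 rlog. Replicates 1 and 3 lay above the controls in both lists. Chrna3, a nicotinic receptor subunit, stood at 4.06, 4.21 and 5.41 rlog in Neurog2 + Hmgb2 cells, against 2.50, 2.50, 2.62, 2.50 and 2.46 rlog in control cells, a rise of 2.05 ± 0.29 (adjusted p = 0.000276). The cannabinoid receptor gene Cnr1 rose by 2.26 ± 0.40, to 7.81, 6.50 and 8.24 rlog, against 4.83 to 5.98 rlog in control cells.

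Among granins and neuropeptide genes, 3 of 20 rose (Sct, Crhbp and Chga) and 1 fell (median 0.42). Sct, which encodes secretin, stood at 8.53, 8.13 and 6.77 rlog in Neurog2 + Hmgb2 cells, against 3.52, 3.95, 4.32, 4.35 and 3.88 rlog in control cells, a rise of 3.81 ± 0.66 (adjusted p = 0.00173). Sct was lowest in Neurog2 + Hmgb2 replicate 3, the library in which Dcx and Neurod1 were highest. Crhbp, the binding protein of corticotropin-releasing hormone, rose by 2.23 ± 0.41, to 4.33, 5.44 and 4.22 rlog, against 2.21 to 2.68 rlog in control cells. Outside that list, the neuropeptide gene Gal (galanin) had a difference of 4.44 ± 1.04, the largest of the genes that no virus carried, with 8.60, 8.57 and 7.86 rlog in Neurog2 + Hmgb2 cells and 3.51, 3.89, 4.27, 4.39 and 3.46 rlog in control cells. The groups did not overlap, and the SE comes from the spread shared over all 8 groups of the fit (adjusted p = 0.0241, and 0.0956 without Neurog2 + Hmgb2 replicate 3). Gal passed in only 3 of the 8 fits with a library left out. C1ql3, a secreted synaptic organizer, fell by 1.16 on the log2 scale and passed in 4 of the 8 fits. Chga passed in only 2 of the 8.

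Further genes passed in all 8 fits. Trp53i11, a p53-inducible gene, stood at 10.42, 10.02 and 11.04 rlog in Neurog2 + Hmgb2 cells, against 7.21, 7.56, 7.25, 7.58 and 7.38 rlog in control cells, a rise of 3.10 ± 0.28 (adjusted p = 4.19e-07). Miat, a long non-coding RNA, rose by 3.45 ± 0.56, and Prmt8, a brain-enriched arginine methyltransferase, by 3.01 ± 0.41. Acpp, an acid phosphatase, and Lama1, a laminin chain, rose by 3.25 ± 0.54 and 2.93 ± 0.59, and Adamts4, a protease of the extracellular matrix, by 2.04 ± 0.33. In the list of cell cycle exit and p53 pathway genes to which Trp53i11 belongs, 3 of 30 members rose (Trp53i11, Hrk and Eda2r), and the median was 0.04. Hrk passed in 3 and Eda2r in 5 of the 8 fits. Of 14 subunits of the BAF chromatin remodelling complex, 2 rose, Actl6b with 1.23 ± 0.30 and Bcl7a with 0.94 ± 0.22, of which Actl6b is the neuronal subunit. Neither held in all 8 fits, and without some of the libraries none of the 14 was called.

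**Figure D2:**
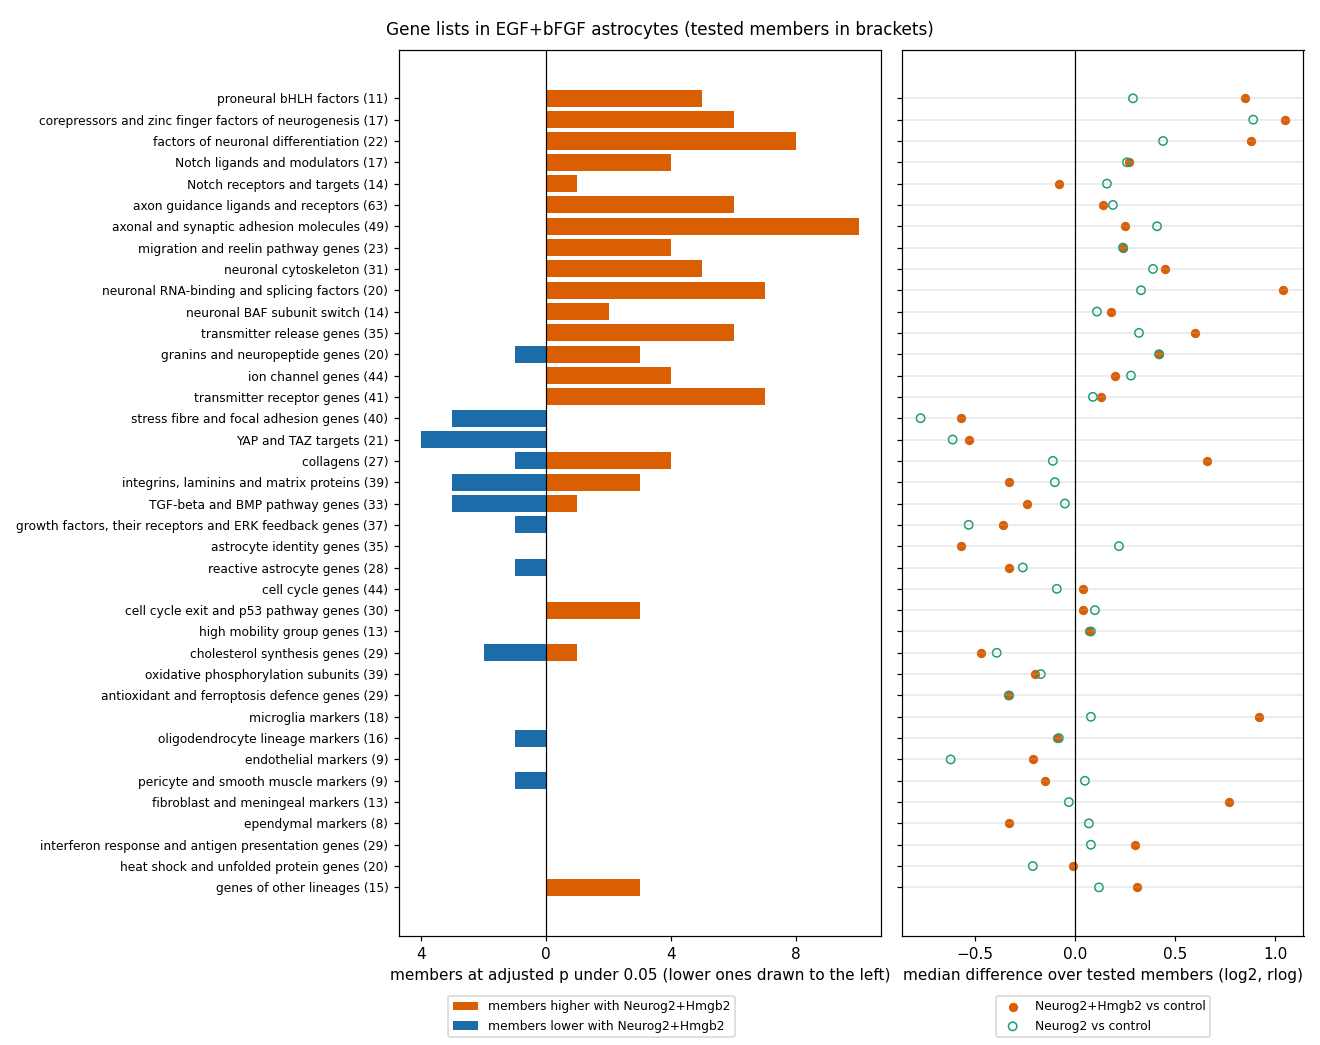
Left, number of members at an adjusted p under 0.05 in Neurog2 + Hmgb2 against control cells in each of 38 gene lists, higher to the right and lower to the left, and right, median difference (log2, rlog) of the tested members for Neurog2 + Hmgb2 (filled) and Neurog2 alone (open), both against the same 5 control libraries. Lists of neurogenesis hold higher members only, and stress fibre genes and YAP and TAZ targets hold lower members only.

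Fewer genes fell, and most of them were well expressed in control cells, with a median control level of 8.51 rlog, against 4.49 rlog for the risen genes. YAP and TAZ are coactivators of the Hippo pathway that respond to cell tension. Of 21 tested YAP and TAZ targets, 4 fell and none rose, with a median of -0.53 and 17 members below 0. F3, tissue factor, stood at 10.45, 9.83 and 9.74 rlog in Neurog2 + Hmgb2 cells, against 11.99, 10.95, 11.44, 11.76 and 11.62 rlog in control cells, a difference of -1.54 ± 0.25 (adjusted p = 0.00112). Ccn2, connective tissue growth factor, stood at 11.12, 11.03 and 9.97 rlog with both viruses, against 12.48, 13.19, 13.27, 11.96 and 12.60 rlog in control cells, a difference of -1.99 ± 0.40 (adjusted p = 0.00722). F3 passed in all 8 fits, and Ccn2 did not pass without Neurog2 + Hmgb2 replicate 3 (0.129). Amot, a binding partner of YAP, and Ccn3, a matricellular protein, had -1.20 ± 0.30 and -1.19 ± 0.29, and neither passed in all 8 fits. Ccn1 and Ankrd1 had differences of -1.01 ± 0.28 and -0.10 ± 0.86 and were not called.

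Stress fibre and focal adhesion genes fell in 3 of 40 tested members and rose in none, with a median of -0.57 and 37 of the 40 below 0. The mean of the 40 genes was 10.87, 11.24 and 10.41 rlog in Neurog2 + Hmgb2 cells. In control cells it was 11.22, 11.76, 11.76, 10.94 and 11.33 rlog, and the groups overlapped. The control libraries at 11.76 rlog, replicates 2 and 3, were among those that stood apart. Cnn1, calponin of contractile cells, stood at 9.31, 8.24 and 8.09 rlog in Neurog2 + Hmgb2 cells, against 10.96, 9.73, 10.26, 10.72 and 11.23 rlog in control cells, a difference of -2.03 ± 0.41 (adjusted p = 0.00709). Pdlim5, a LIM protein at actin filaments, and Rsu1, a focal adhesion protein, had -0.80 ± 0.15 and -0.73 ± 0.16. None of the 3 passed without Neurog2 + Hmgb2 replicate 3, with an adjusted p of 0.0978 for Cnn1, 0.069 for Pdlim5 and 0.169 for Rsu1.

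Beside F3, those of the 31 lower genes that passed in all 8 fits were Prss23, Emp2 and Scx. Prss23, a serine protease, stood at 11.09, 10.10 and 10.16 rlog in Neurog2 + Hmgb2 cells, against 12.03, 11.51, 12.03, 12.36 and 12.20 rlog in control cells, a difference of -1.58 ± 0.27 (adjusted p = 0.00152). Emp2, a tetraspan membrane protein, stood at 9.95, 9.12 and 8.98 rlog with both viruses, against 10.95, 10.14, 10.89, 11.13 and 11.13 rlog in control cells, a difference of -1.50 ± 0.27. Scx, a bHLH factor of tendon progenitors, stood at 5.07, 4.68 and 5.08 rlog, against 6.60, 5.88, 6.45, 6.56 and 6.32 rlog in control cells, a difference of -1.42 ± 0.26. In each of these 3 genes the highest Neurog2 + Hmgb2 library lay below the lowest control library, by the smallest margin in Emp2. The other large falls among genes without overlap were those of Gm15270, an unnamed gene model (-2.01 ± 0.39), the adaptor gene Grb14 (-1.30 ± 0.30), the pro-apoptotic gene Pawr (-1.20 ± 0.28), and Fam110c, Ptchd4 and Lratd2 (-1.52 ± 0.40, -1.49 ± 0.29 and -1.26 ± 0.27). None of these passed in all 8 fits. Gm15270 (chr10:24549441-24597108, minus strand, GRCm38) overlaps Ccn2 (chr10:24595442-24598683, plus strand), and without strand the reads of these genes cannot be told apart. Cyp24a1, which inactivates vitamin D, had the largest fall of the 31 (-2.24 ± 0.59), but its groups overlapped, with 4.94, 3.26 and 2.71 rlog in Neurog2 + Hmgb2 cells and 6.54, 4.25, 6.04, 6.47 and 6.10 rlog in control cells.

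Matrix genes moved both ways. Of 27 tested collagens, 4 rose and 1 fell (median 0.66): Col14a1, Col27a1, Col28a1 and Col6a4 rose by 0.80 to 2.20, and Col12a1 fell by 1.18 on the log2 scale. The 4 rises were each lost in at least 1 of the 8 fits, and without the 3 libraries that stood apart 1 of the 27 rose and none fell. Of 39 integrins, laminins and matrix proteins, 3 rose (Lama1, Adamts4 and Itga4) and 3 fell (Timp3, Cd151 and Cd109). Itga4 passed in 4 of the 8 fits, the groups of Cd151 overlapped, and none of the 3 falls passed without Neurog2 + Hmgb2 replicate 3. Of 33 TGF-beta and BMP pathway genes, 1 rose and 3 fell. Id3, a BMP target that inhibits bHLH factors, stood at 12.13, 12.18 and 11.42 rlog in Neurog2 + Hmgb2 cells, against 12.81, 12.66, 12.57, 12.78 and 12.57 rlog in control cells, a difference of -0.77 ± 0.17 (adjusted p = 0.0174). Nog, the BMP antagonist noggin, and Smad9, a BMP-regulated Smad, had -1.35 ± 0.35 and -1.14 ± 0.26. None of those 3 falls passed without Neurog2 + Hmgb2 replicate 3. Bnc1, Ucma and Pmel, members of the 15 tested genes of other lineages, rose by 2.21 ± 0.47, 1.51 ± 0.36 and 0.63 ± 0.16. They are known from keratinocytes, cartilage and pigment cells, and each of the 3 calls was lost in at least 1 of the 8 fits.

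Cholesterol synthesis genes fell in 2 of 29 tested members and rose in 1, with a median of -0.47. Sc5d, sterol C5-desaturase, stood at 9.16, 8.68 and 8.75 rlog in Neurog2 + Hmgb2 cells, against 9.91, 9.27, 9.81, 10.04 and 9.72 rlog in control cells, a difference of -0.88 ± 0.17 (adjusted p = 0.0032, and at most 0.0453 over the 8 fits). Msmo1, a methylsterol oxidase, had -0.96 ± 0.24 (adjusted p = 0.0381) and passed in only 2 of the 8 fits. The member that rose, Abcg1, exports cholesterol and does not make it. It stood at 6.11, 7.60 and 6.74 rlog in Neurog2 + Hmgb2 cells and at 3.68, 6.65, 4.69, 3.88 and 3.89 rlog in control cells, which overlapped, and its highest control library, replicate 2, was also the control library with the highest microglia markers.

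**Figure D3:**
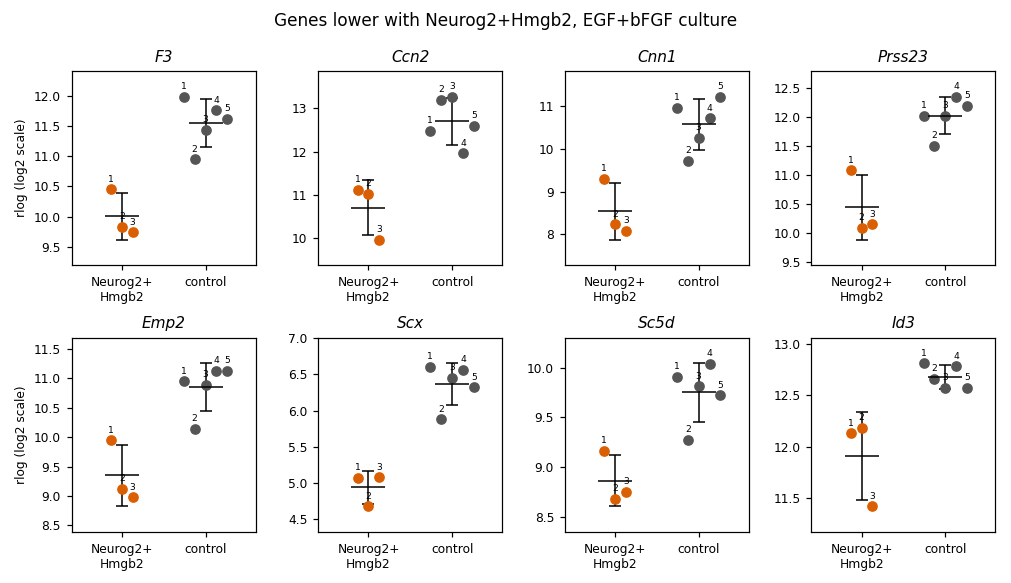
Rlog values (log2 scale) of lower genes in the 3 Neurog2 + Hmgb2 libraries (orange) and the 5 control libraries (grey) of the EGF + bFGF culture, numbered by replicate, with means (bars) and SD (error bars). All 3 Neurog2 + Hmgb2 libraries lie below all 5 control libraries in each gene, and F3, Prss23, Emp2, Scx and Sc5d kept an adjusted p under 0.05 in all 8 fits that left a library out.

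Glial identity genes did not pass the test at this time point. Of 35 tested astrocyte identity genes, none rose and none fell, although 29 lay below 0 and the median was -0.57. Gfap had a difference of -0.15 ± 0.66 (adjusted p = 0.956), the glutamate transporter gene Slc1a3 had -1.06 ± 0.58 (0.458), and the water channel gene Aqp4 had -0.96 ± 0.72 (0.62). The mean of the 35 genes was 10.47, 9.08 and 9.95 rlog in Neurog2 + Hmgb2 cells, against 10.82, 9.78, 9.79, 10.71 and 10.79 rlog in control cells, and the groups overlapped. Within the 3 libraries that stood apart and within the other 5, the median difference of the list was -0.65 in both. The first value sets Neurog2 + Hmgb2 replicate 2 alone against control replicates 2 and 3. Because the axis came from the same values, whether the difference depends on it was not tested. In every library of both groups Gfap lay far above the median control level of all tested genes, 7.45 rlog.

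None of 28 reactive astrocyte genes rose and 1 fell (Cd109, -0.79 ± 0.17). None of 44 cell cycle genes was called, with a median of 0.04, and Mki67, a marker of proliferating cells, had -0.01 ± 0.35. None of 13 tested high mobility group genes other than Hmgb2 was called, among them Hmgb1, the closest relative of Hmgb2, with 0.19 ± 0.36 (adjusted p = 0.884). Oxidative phosphorylation subunits were all below 0 (39 of 39) by small amounts, -0.34 to -0.01 with a median of -0.20, and none was called. Antioxidant and ferroptosis defence genes were below 0 in 28 of 29 members, with a median of -0.33, and none was called.

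Markers of other cell types differed between libraries. Microglia markers were above 0 in 18 of 18 members, with a median of 0.92, and none was called. Their mean was 5.16, 8.64 and 7.09 rlog in Neurog2 + Hmgb2 cells, against 5.76, 8.68, 6.46, 4.56 and 4.77 rlog in control cells. Csf1r, the receptor that microglia depend on, stood at 5.90, 9.83 and 7.82 rlog in Neurog2 + Hmgb2 cells and at 6.56, 9.90, 7.14, 4.71 and 5.47 rlog in control cells, highest in replicate 2 of both groups. Fibroblast and meningeal markers had a median of 0.77, with none of 13 called and a mean of 8.65 to 9.58 rlog in Neurog2 + Hmgb2 cells and 7.86 to 8.74 rlog in control cells. Col1a1 was high in all 8 libraries, at 11.95 to 14.87 rlog. Oligodendrocyte lineage markers had 1 of 16 lower (Aspa, -0.73 ± 0.18) and pericyte and smooth muscle markers 1 of 9 lower (Mcam, -1.37 ± 0.35). Aspa and Mcam each passed in only 2 of the 8 fits, and the groups of Mcam overlapped. Endothelial and ependymal markers had none called of 9 and 8. All 38 lists together held 982 tested genes, of which 93 rose and 20 fell. None of 29 interferon response or 20 heat shock and unfolded protein genes was called, and of 37 growth factor, receptor and ERK feedback genes 1 fell (Pdgfa, -0.91 ± 0.22). Pdgfa passed in only 2 of the 8 fits. The part of other cell types in the differences between groups was not tested.

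**Figure D4:**
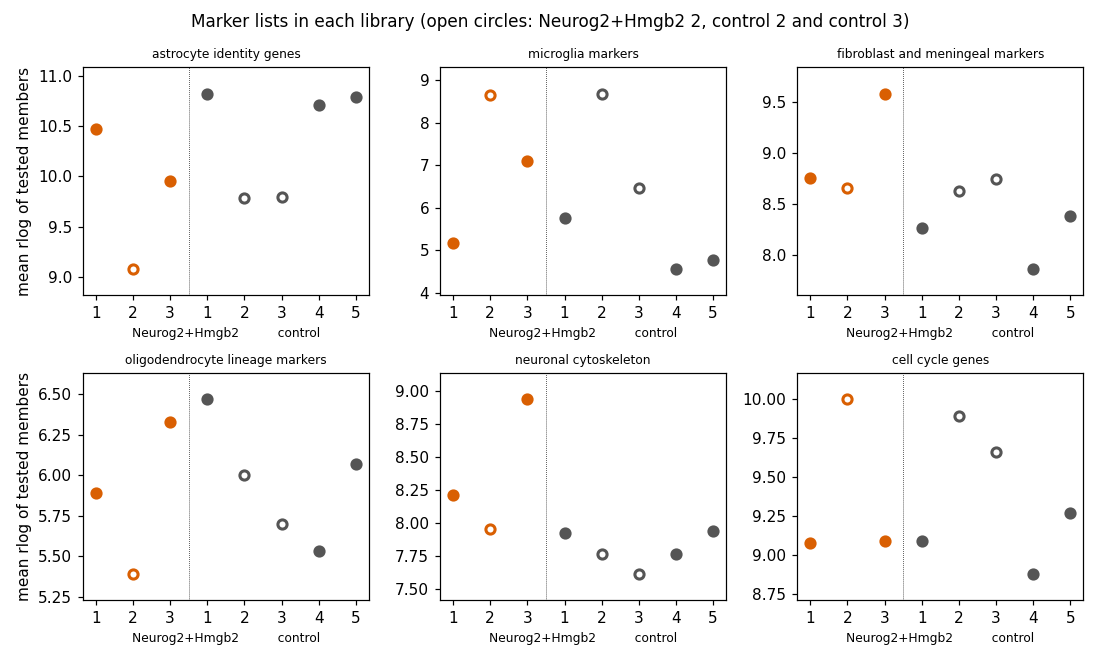
Mean rlog of the tested members of gene lists in each Neurog2 + Hmgb2 library (orange) and control library (grey) of the EGF + bFGF culture, by replicate number, where open circles mark the 3 libraries at one end of the main axis of deviations. Those 3 libraries have the lowest astrocyte means and the highest cell cycle means, and neuronal cytoskeleton genes are highest in Neurog2 + Hmgb2 replicate 3.

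Comparison with Neurog2 alone asked what Hmgb2 added in this culture. Only Hmgb2 itself (0.00636% of the tested genes) was higher in Neurog2 + Hmgb2 than in Neurog2 cells, by 1.84 ± 0.29 (adjusted p = 0.0265, limma), and no gene was lower. At an unadjusted p under 0.05 there were 585 genes. Hmgb2 stood at 12.37, 11.71 and 13.32 rlog with both viruses, against 10.49, 10.89 and 10.49 rlog with Neurog2 alone. With 3 libraries in each of these groups, the 95% interval of the difference, unadjusted, had a median half-width of 0.75 over the 184 counted genes. For a typical counted gene, smaller differences could not be told from 0 even before adjustment. After adjustment over all tested genes, no counted gene other than Hmgb2 was called, though their differences reached 1.56 in absolute size. The call of Hmgb2 was itself lost in 5 of the 6 fits that left out a library of these groups.

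The intervals, which are not adjusted for the number of genes, show the sizes the data allow. For Dcx the difference between Neurog2 + Hmgb2 and Neurog2 cells was 1.01 (95% interval -0.29 to 2.31), with 6.64, 6.70 and 8.52 rlog in Neurog2 + Hmgb2 cells, against 4.99, 7.07 and 6.77 rlog in Neurog2 cells. For Cbfa2t3 it was 0.34 (95% interval -0.27 to 0.96) and for Dll1 -0.12 (95% interval -0.90 to 0.67). The largest differences of counted genes other than Hmgb2 were those of Crhbp, Heyl and Ppp1r14a. Crhbp had 1.56 (95% interval 0.60 to 2.51), with 4.33, 5.44 and 4.22 rlog in Neurog2 + Hmgb2 cells, against 2.64, 3.31 and 3.37 rlog in Neurog2 cells, Heyl had 1.31 (95% interval -0.13 to 2.74), and Ppp1r14a had 1.25 (95% interval 0.51 to 1.99), with 6.53, 7.49 and 7.50 rlog, against 5.45, 5.97 and 6.36 rlog. The libraries of these 2 groups did not overlap for Crhbp or Ppp1r14a but did for Heyl, and all 3 had an adjusted p of 0.802. Cplx2 and Prss23 lay on the other side, with -0.58 (95% interval -1.13 to -0.03) and -0.76 (95% interval -1.38 to -0.13).

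Set beside each other, and with the same 5 control libraries behind both, Neurog2 + Hmgb2 gave 153 higher and 31 lower genes, and Neurog2 alone 153 and 16. Proneural factors had a median of 0.85 with both viruses and 0.29 with Neurog2 alone, and the members' direct differences, both viruses minus Neurog2 alone, had a median of 0.03. RNA-binding and splicing factors had 1.04 (7 of 20 higher) with both viruses and 0.33 (2 of 20 higher) with Neurog2 alone, with a median direct difference of 0.59. Their mean was 6.55, 6.31 and 7.34 rlog with both viruses, against 5.97, 6.48 and 6.40 rlog with Neurog2 alone. Without Neurog2 + Hmgb2 replicate 3, the highest of these, 2 of the 20 were higher with both viruses. Axonal and synaptic adhesion molecules had 0.25 (10 of 49 higher) with both viruses and 0.41 (9 of 49 higher) with Neurog2 alone, with a median direct difference of -0.21. The astrocyte identity genes had -0.57 with both viruses and 0.22 with Neurog2 alone, with none called in either and a median direct difference of -0.69. Their mean was 10.47, 9.08 and 9.95 rlog with both viruses, against 10.48, 10.68 and 10.64 rlog with Neurog2 alone. The lowest of these was Neurog2 + Hmgb2 replicate 2, one of the libraries that stood apart, and replicate 1 was near the Neurog2 libraries. Whether a list differed between the viruses was not tested. The libraries labelled Hmgb2 alone gave 2 higher and no lower genes, and these were the 2 genes of the viruses: Neurog2, by 2.66, and Hmgb2, by 2.22. At an unadjusted p under 0.05 Hmgb2 alone had 123 genes.

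No gene departed from the sum of the responses to Neurog2 alone and Hmgb2 alone by more than 2-fold with an adjusted p below 0.05 (limma, smallest adjusted p = 0.885, 281 genes at an unadjusted p under 0.05). The comparison takes the Hmgb2 libraries at their label, though Neurog2 was above control in them. Cbfa2t3, for example, stood at 4.49, 5.07, 4.85 and 4.79 rlog in Hmgb2 cells, against 3.25 to 3.88 rlog in control cells, and its departure from the sum was -0.85 ± 0.39 (adjusted p = 0.885).

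**Figure D5:**
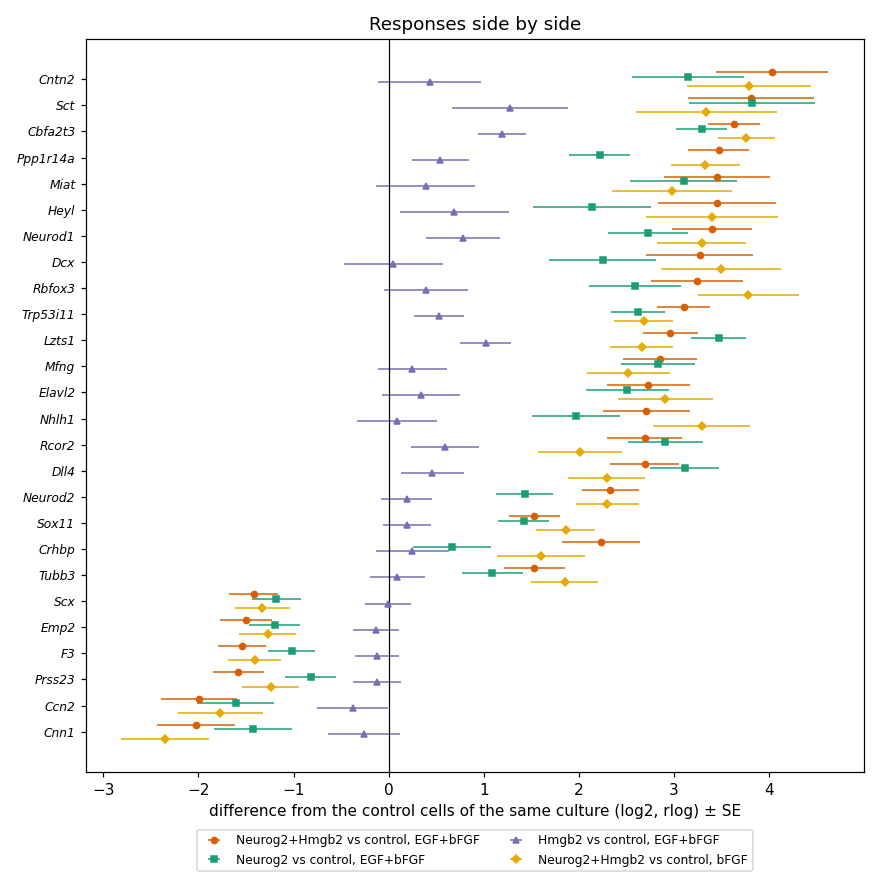
Differences (log2, rlog) ± SE from the control cells of the same culture for genes higher or lower with Neurog2 + Hmgb2, with Neurog2 + Hmgb2, Neurog2 and Hmgb2 in EGF + bFGF and Neurog2 + Hmgb2 in bFGF, of which the first 3 share their 5 control libraries. Among the genes drawn, Neurog2 + Hmgb2 lies farthest from Neurog2 alone in Crhbp, Heyl and Ppp1r14a.

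In the bFGF culture, Neurog2 + Hmgb2 was compared with its own 3 control libraries, in the same fit, and 162 genes (1.03%) were called higher and 71 (0.452%) lower at an adjusted p under 0.05. Of the 153 genes higher in EGF + bFGF, 153 were above 0 in bFGF, 96 (62.7%) were called higher there, and their median difference was 1.70 in both cultures. Of the 31 lower genes, 31 were below 0, 14 (45.2%) were called lower, and the median fell by 1.20 on the log2 scale in EGF + bFGF and by 1.00 in bFGF. Neurod1 rose by 3.29 ± 0.47 in bFGF (adjusted p = 0.000519), Cbfa2t3 by 3.76 ± 0.30 (4.69e-08), Dcx by 3.49 ± 0.63 (0.00424) and Rbfox3 by 3.78 ± 0.53 (0.000519). F3 had -1.41 ± 0.28 (0.0102), Cnn1 -2.35 ± 0.46 (0.00821) and Ccn2 -1.77 ± 0.45 (0.0476). Lama1, Crhbp and Gal were above 0 in bFGF without passing, with 1.62 ± 0.66, 1.60 ± 0.46 and 3.69 ± 1.17.

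No gene responded differently in the cultures by the interaction test, by more than 2-fold with an adjusted p below 0.05 (limma, 243 genes at an unadjusted p under 0.05). The difference of the responses, EGF + bFGF minus bFGF, was 0.11 (95% interval -1.20 to 1.42) for Neurod1, -0.22 (95% interval -1.97 to 1.53) for Dcx and -0.23 (95% interval -1.48 to 1.03) for Ccn2. The median SE of this difference was 0.32 over all tested genes, and a threshold missed does not show that the cultures responded alike.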

How the data were processed

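RNA was sequenced from sorted mouse astrocytes, with RIN above 8, from 10 ng of total RNA, in libraries that do not mark strand. Per the labels and the submitters' processing notes, reads were aligned with STAR to mm10, counted per gene with HTSeq 0.9.1 on GENCODE annotation, and transformed with DESeq2 1.36.0. The authors deposited log2 scale rlog values, which are normalised and shrunken, of 29 libraries in 8 groups. No counts were used here, so the depth per library, and with it the counting error, is unknown. All columns were matched to a sample by name.

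Genes with a mean rlog of at least 1 over all libraries entered limma 3.58.1 (R 4.3.3), with 1 mean per group, a shared spread with a mean-variance trend, and Benjamini-Hochberg adjustment over 15719 genes. Genes were counted at a fold above 2 and an adjusted p under 0.05, and single genes and list members were called at an adjusted p under 0.05, two-sided. The fit was run on simulated data with independent noise per gene, which does not show how it behaves with deviations shared across genes. The comparison and the 38 lists were chosen with earlier results of these data known, and the lists also with the study's own results in view. Named were the 15 largest rises and falls without overlap, the 10 lowest adjusted p, up to 8 called members per list, genes the study names and members given by value. Cyp24a1 and the printed promoters were chosen after their values were seen. Alternatives were filters, scaling, samples in the fit, library weights, variance trend, fold threshold, replicate blocks and each library left out. Some called genes are not reported here. Promoter sequences came from RefSeq. The sources disagree on grey or white matter and on age.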

Additional observations from a re-analysis of the deposited data

Results flagged for a closer look

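Single libraries stood far from the rest of their group of 5 control libraries for 12 genes and 2 list means out of 176 items examined, and chance alone marks about 1 in 20. Control replicate 2 stood apart for Dcx at 4.74 rlog (others 3.69 to 3.95), Emp2 at 10.14 (10.89 to 11.13), Myt1 at 4.04 (3.03 to 3.32), Actl6b at 2.34 (1.93 to 2.01), Col14a1 at 6.01 (3.90 to 4.21), Acvr2b at 5.32 (4.69 to 4.85) and Pou2f2 at 4.13 (2.15 to 2.65). Control replicate 4 was low for Hmgb2 at 9.57 rlog (10.10 to 10.30) and Hmgb1 at 9.85 (10.57 to 10.83), and high for the mean of reactive astrocyte genes at 10.00 (9.01 to 9.29). Insm1 stood at 5.98 rlog in control replicate 5 (4.35 to 4.77), and Dll4 at 2.91 in control replicate 1 (3.35 to 3.48). In control replicate 3, Chrna3 stood at 2.62 rlog (2.46 to 2.50) and the mean of Notch receptors and targets at 6.90 (7.19 to 7.25).

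Neurog2 was above the control level in libraries whose label does not name it: its lowest value in the libraries labelled Hmgb2 alone was 9.89 rlog, against 7.74 to 8.18 rlog in control cells.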

How the results depend on the processing

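The number of genes counted depended on the fit. None of the 129 called named genes reversed in the alternatives, up to 21, that tested it. A filter at a mean rlog of 4 left some of them out. 34 kept their call wherever they were tested, and 554 of their values fell short of the threshold. Against 153 higher and 31 lower genes, fitting only the groups compared gave 68 and 8 (64 and 4 shared), with 41 called list members against 113. Library weights, whose estimation stopped before its convergence tolerance, gave 404 and 236, with 285 list members. With no fold threshold there were 230 and 82, and 63 fell at 1.5-fold. Without a filter on low values 17 fell, more genes being tested. After seeing the data, leaving out the 3 libraries that stood apart was added and gave 17 lower genes, and their axis as a covariate gave 268 and 131, with 244 list members, although that axis came from the same deviations. With each library left out in turn the counts were 65 to 225 and 4 to 63, the list members 36 to 121, and the differences of Neurog2 5.58 to 6.12 and of Hmgb2 1.96 to 2.76.

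Against Neurog2 alone, Hmgb2 was the gene called in the report. With library weights 3 genes were higher, and 0 were higher after quantile normalisation, with only the groups compared, with either replicate block, and in 5 of 6 fits with a library left out (0 to 1). The comparison of cultures and the departure from the sum of both viruses gave 0 genes under each alternative run.

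The deviations of same-numbered Neurog2 + Hmgb2 and control libraries correlated at 0.49, 0.76 and -0.37 for numbers 1 to 3, so number 3 did not deviate together and the libraries were not taken as paired. Neurog2 + Hmgb2 replicate 2 correlated best with its own number, and replicates 1 and 3 with another. A replicate block gave 139 higher and 30 lower genes, and a replicate block within each culture 139 and 25. As values without counts, the data cannot say how much of the spread of weakly expressed genes is counting error.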
